A study of Homo sapiens with 6 samples.

Results

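This account compares the 2 high-Myc arrays with the 2 low-Myc arrays of a series of 6 arrays, chosen by their titles, across all human probe sets that map to 1 gene. P493-6 is an established human B-cell line, labelled as B-cell lymphoma, that carries a c-Myc transgene repressed by tetracycline. Cells of every group were grown in RPMI 1640 with FBS. Low-Myc cells had the transgene released for 0 hours and high-Myc cells for 24 hours. The other 2 arrays, mid-Myc cells at 1 hour, entered the fits only to help estimate the spread between duplicates. All groups come from this 1 line and the duplicates are called biological by the design text, so the errors below cover cultures of 1 line and not different donors. The question asked here is which genes and pathways make up the state reached after 24 hours.

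MYC encodes a transcription factor that pairs with MAX and binds E-box DNA, in actively transcribed promoters above all. It is known for raising genes of ribosome production, nucleotide synthesis, mitochondria and cell division, and in B cells it accompanies the passage from rest to growth. Antigen stimulation switches it on briefly in normal B cells, and chromosomal translocations lock it on in Burkitt lymphoma.

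Each gene was read on 2 scales, because synthetic ERCC RNAs had been added in proportion to cell number. On the per-cell scale, log2 values were set against a curve through the ERCC probe sets of the same array. For the equal-median scale, the median of all human probe sets was subtracted from each array, which shows how a gene moved relative to the others. Changes are high-Myc minus low-Myc in log2, tested with limma and called at a Benjamini-Hochberg adjusted p under 0.05. "Higher" and "lower" mean called on the equal-median scale unless the per-cell scale is named. Values called intensities are as deposited, before either scaling. In bulk RNA, fewer cells expressing a gene and less RNA per cell cannot be told apart.

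MYC itself was read at 10472 and 10279 on the low-Myc arrays and 11888 and 11979 on the high-Myc arrays. Both high-Myc arrays lay above both low-Myc arrays, by 0.34 (SE 0.031, limma adjusted p = 2.68e-07) on the equal-median scale and 0.96 per cell. Whether the probe set reads the transgene, the cells' own MYC RNA or both was not tested. Its intensities lie in the range of the ERCC probe sets above 5000, which fell 1.42-fold in high-Myc samples as deposited against 2.55-fold for those from 100 to 5000. The part of this in the MYC difference was not tested, and the difference is not read as the size of induction. MS4A1, which encodes CD20, stood at 9364.6 or more on every array, and all 8 measured B-cell markers passed the filter. Their summed intensity went from 27146 and 27209 in low-Myc to 16897 and 16773 in high-Myc cells. Of 14 T and NK cell markers 10 passed the filter, with sums of 732 and 772 against 571 and 565, and none exceeded 113 on any array. Among 11 monocyte and macrophage markers 4 passed the filter and the sum was 2857 and 2794 against 1114 and 1057. LYZ (-1.49), MS4A7 (-1.37) and CD68 (-1.03) carried this sum, while the defining markers CD14, FCN1, S100A8 and S100A9 stayed at or below 36.6 on every array. Sums of erythroid and platelet markers and of fibroblast and epithelial markers did not exceed 431 on any array. The part of the falling monocyte sum in the results was not tested.

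Per cell, most genes were called higher in high-Myc cells, though by no more than background probe sets in many cases. Of 12198 genes tested, 11099 (91%) were higher and 301 (2.47%) were lower, or 93.5% called in either direction, with a median change of 0.98, or 1.97-fold. A change of 2-fold or more was reached by 5960 genes (48.9%) upward and 47 (0.385%) downward. From the 5th to the 95th percentile of genes, changes spanned 0.05 to 2.50. Array medians (log2) were 6.85 and 6.88 in low-Myc cells and 8.13 on both high-Myc arrays, which an exact two-sided permutation test of 2 against 2 arrays scores at p = 0.333, the smallest it can give. On the equal-median scale the same genes split, with 4598 higher (37.7%) and 3172 lower (26%), or 63.7% called, and 1354 (11.1%) and 505 (4.14%) by 2-fold or more. This split depends on where the arrays are centred: the share higher among called genes was 59.2% here, 47.6% after quantile normalization, 51.7% with cyclic loess, 46.9% in the values as deposited and 41.5% when arrays were centred on the tested genes, which moved the median change from 0.054 to -0.15. Of the 4598 genes called higher, 4416 kept their sign under all 4 other scalings, as did all 3172 called lower. The call itself held under all 4 for 3468 of those higher and 3160 of those lower.

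Set against each other, the 2 scales sort the genes into classes. All 4598 genes higher relative to others were also higher per cell, with medians of 0.68 and 1.72, and 4537 of them at least doubled per cell. A further 2253 genes (18.5%) rose per cell by a median of 0.57 but fell relative to others by 0.43, and none of these reached 2-fold per cell. The 301 genes lower per cell were all lower on the equal-median scale too, with medians of -0.42 and -1.47. Another 618 genes were lower relative to others and not called per cell, 4248 were higher per cell only and 180 were not called on either scale. These counts depend on how bright a gene is. In the dimmest decile, around 37.7 intensity, 8.2% of genes were called higher and 9.26% lower, against 50.1% and 38.4% in the brightest decile, around 1722.2. Probe sets that match no transcript and serve as background are not confined to the range of dim genes. The brightest had a mean intensity of 694 and the next 194. The 7 of them above the filter also moved by 0.73 to 1.57 per cell, and by 0.094 to 0.44 on the equal-median scale. Of the genes called higher per cell, 2873 (23.6% of those tested) rose by more than all 7, 5301 lay within their range and 2925 below it. A per-cell call alone therefore does not show that the RNA of a gene rose, whether dim or as bright as these probe sets. Changes under 0.73 in brighter genes also lay below all 7, and whether their RNA rose was not tested. After the curve was subtracted, the 10 brightest ERCC probe sets (above 5000) still lay 0.26 above low-Myc and the 34 between 100 and 5000 lay 0.14 below.

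**Figure D1:**
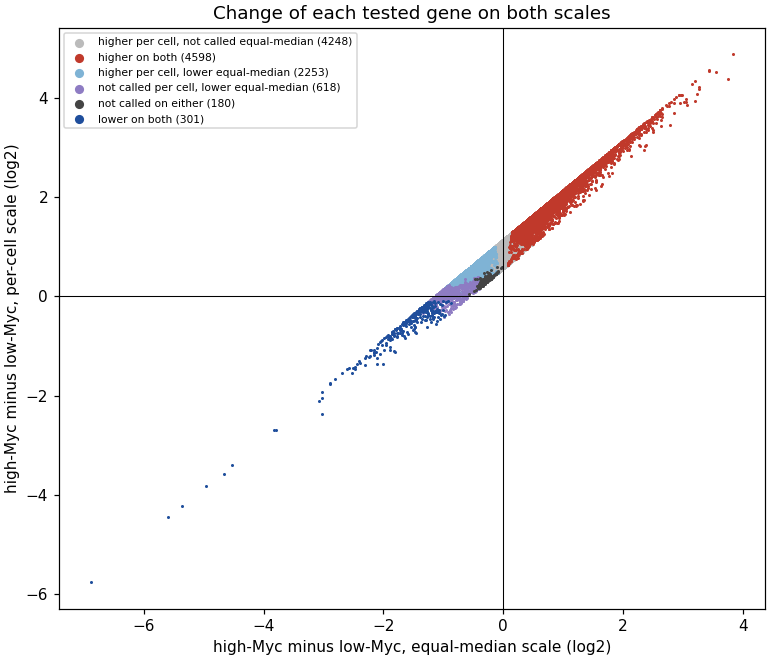
Change of each of the 12198 tested genes, high-Myc minus low-Myc, on the equal-median scale (horizontal, log2) and the per-cell scale (vertical, log2), coloured by class with the number of genes in the legend. Most points lie above the horizontal line at 0, and the 301 genes lower on both scales form a thin tail at lower left.

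Among genes at 200 or more in both groups, the largest rise was in FABP5. FABP5, a fatty acid-binding protein, was read at 201 and 206 on the low-Myc arrays and 2159.6 and 1844 on the high-Myc arrays. It rose 10.8-fold relative to other genes (3.44, SE 0.072, limma adjusted p = 4.56e-13) and by 4.58 per cell. NOP16, which acts in assembly of the large ribosomal subunit, was read at 236 and 215 on the low-Myc arrays and 1859.7 and 1893 on the high-Myc arrays and rose by 3.20, or by 2.02 with the mean of its probe sets. PAICS, a bifunctional enzyme of purine synthesis, went from 285 and 273 to 1903 and 1959 and rose by 2.93. SRM, which makes spermidine from putrescine, went from 281 and 265 to 1886 and 1892 and rose by 2.93. Separation of the groups on the equal-median scale was a condition for naming these genes. Over all tested genes 79.9% showed it on this scale and 96.7% per cell. The next 8 were the proteasome assembly chaperone PSMG1 (2.89), the nucleolar protein LYAR (2.85), the mitochondrial prohibitin PHB1 (2.66), PA2G4 (2.64), the nucleolar RRP1B (2.62, or 1.64 with the mean of its probe sets), the HSP90 co-chaperone FKBP4 (2.54), the ATP synthase c-ring gene ATP5MC1 (2.53) and the replication licensing factor CDC6 (2.48). Their adjusted p did not exceed 6.58e-12 (limma), and each was also higher per cell, by 3.62 or more.

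The largest fall among equally bright genes was in SAT1. SAT1, which acetylates spermidine and spermine and so starts their breakdown, was read at 3984 and 3927 on the low-Myc arrays and 423 and 426 on the high-Myc arrays. It fell 8.46-fold relative to other genes (-3.08, SE 0.044, limma adjusted p = 1.26e-14) and by 2.11 on the log2 scale per cell. YPEL5, of the conserved yippee family, went from 2038 and 1993 to 323 and 320.1 (-2.51). The tissue kallikrein KLK1 went from 2017 and 2088 to 335 and 357 (-2.43). TSC22D3, a glucocorticoid-induced gene, went from 1630.4 and 1639 to 268 and 292 (-2.41). As for the rises, groups without overlap on the equal-median scale were a condition for naming these genes. GPR183, an oxysterol receptor that guides B cells within lymphoid tissue, changed by -2.39, the integrin ITGAM by -2.31, the inhibitory co-receptor CD72 by -2.16 (-1.20 with the mean of its probe sets), LST1 by -2.03 and the immediate early gene IER2 by -1.96. The linker histone H1-10 changed by -1.91, MTSS1 by -1.89 and the signalling adaptor HCST by -1.85. All 12 were also lower per cell, from -2.11 in SAT1 to -0.73 in HCST, although H1-10 lost its per-cell call when all its probe sets were averaged (-0.12, limma adjusted p = 0.0806). ITGAM and LST1 are shared with myeloid cells, whose marker sum also fell as given above, and whether these are linked was not tested.

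**Figure D2:**
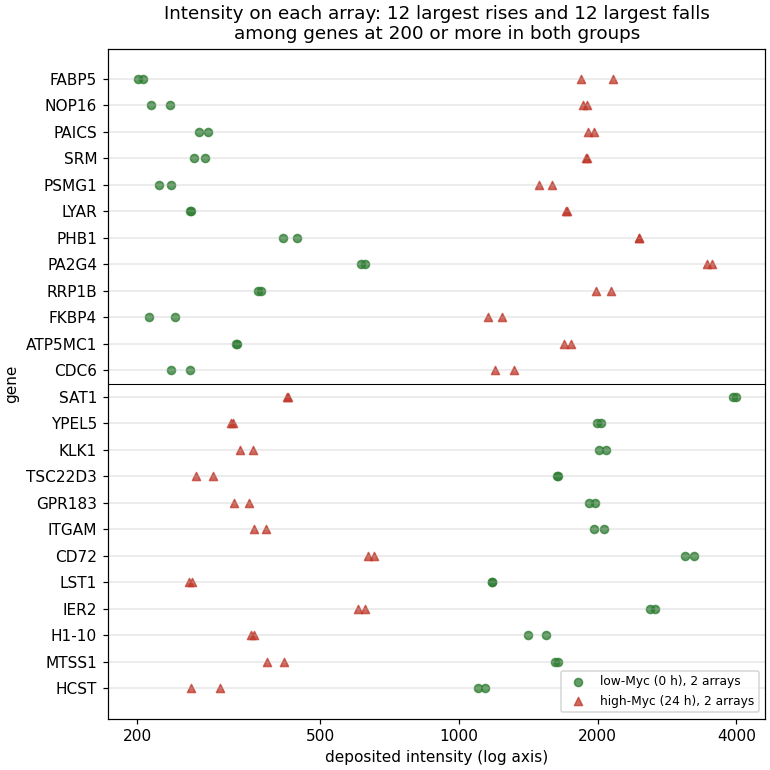
Deposited intensity (log axis) of the 12 genes that rose most and the 12 that fell most on the equal-median scale among genes at 200 or more in both groups, with 1 point per array. Triangles (high-Myc) lie to the right of circles (low-Myc) in every risen gene above the line and to the left in every fallen gene below it. Groups without overlap on the equal-median scale were a condition of choice.

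The promoters of SRM, SAT1 and YPEL5 are shown. A risen gene was shown only if its window held the E-box, and fallen genes by size of fall alone. The contrast between these sequences was thus set by the choice. The windows are the 250 bases before each gene's annotated start in RefSeq (GRCh38.p14). SRM lies on the minus strand at chr1:11060019-11060268, SAT1 on the plus strand at chrX:23782923-23783172 and YPEL5 on the plus strand at chr2:30146757-30147006. Capitals mark the E-box CACGTG, the word bound by MYC with MAX. It occurs once in SRM, 199 bases before the start, and not in these windows of SAT1 and YPEL5.
SRM: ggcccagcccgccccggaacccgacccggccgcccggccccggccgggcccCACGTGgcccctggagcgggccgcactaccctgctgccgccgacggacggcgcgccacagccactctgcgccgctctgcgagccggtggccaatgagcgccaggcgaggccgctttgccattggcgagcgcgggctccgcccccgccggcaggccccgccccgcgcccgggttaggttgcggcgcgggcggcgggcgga
SAT1: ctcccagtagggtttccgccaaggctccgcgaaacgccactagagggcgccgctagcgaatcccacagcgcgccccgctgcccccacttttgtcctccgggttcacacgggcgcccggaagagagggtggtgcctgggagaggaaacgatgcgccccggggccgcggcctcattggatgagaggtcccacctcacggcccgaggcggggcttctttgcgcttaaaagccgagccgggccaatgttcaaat
YPEL5: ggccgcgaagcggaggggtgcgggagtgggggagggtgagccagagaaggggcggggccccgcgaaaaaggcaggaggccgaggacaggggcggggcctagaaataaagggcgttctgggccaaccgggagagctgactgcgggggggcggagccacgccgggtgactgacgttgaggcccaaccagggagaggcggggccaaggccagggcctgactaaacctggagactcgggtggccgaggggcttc
Of the 9 risen genes above that have an entry in the promoter table, SRM was the only one with the word, and of the 10 fallen genes with an entry none had it.

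Groups of functionally related genes were then described with 82 lists, of 2255 genes in all, of which 2081 passed the filter. Their members are given by counts beside the background of all tested genes, 37.7% higher and 26% lower with a median of 0.054. Per cell every list had a median above 0, and in 48 lists every tested member was higher per cell. Of all tested genes 91% were higher per cell and 2.47% lower, the background for the per-cell counts below. On the equal-median scale the medians ran from 1.92 in purine synthesis to -0.94 in the YPEL, BTG and TOB genes. The sign of the median held under the 4 other scalings in all but 8 lists, which are named below.

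**Figure D3:**
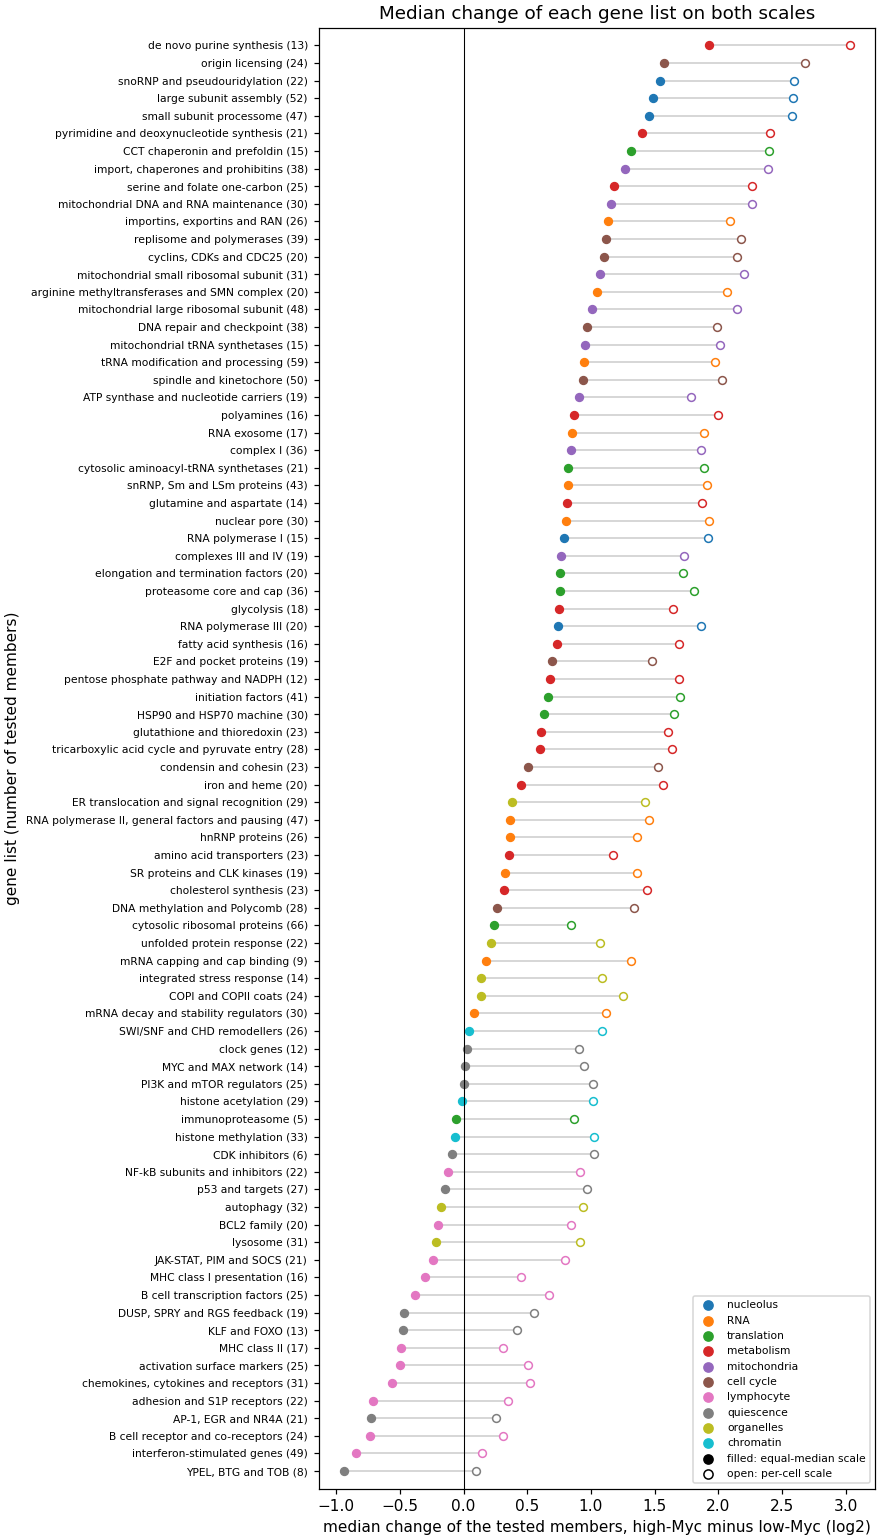
Median change of the tested members of each of 82 gene lists, high-Myc minus low-Myc (log2), on the equal-median scale (filled) and the per-cell scale (open), coloured by theme, with the number of tested members in brackets. Lists of nucleotide, replication and ribosome assembly genes lie at the top and those of interferon, B-cell receptor and YPEL, BTG and TOB genes at the bottom, where per-cell medians come close to 0.

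Genes of ribosome production were raised from the polymerase to the assembly factors of both subunits. Of 156 tested nucleolar genes 146 were higher, 1 was lower and none was lower per cell, against 2.47% of all genes. RNA polymerase I, which transcribes ribosomal RNA, had all 6 of its own subunits higher, led by POLR1B, which went from 140.0 and 151 to 897 and 861 (2.74). Its promoter factors were divided. RRN3, which brings the polymerase to the promoter, rose by 0.63, whereas the architectural factor UBTF (0.17), TAF1B (0.001) and the terminator TTF1 (-0.014) were not called. All 47 tested genes of the small subunit processome, which cuts and folds the 18S precursor, were higher (median 1.46), among them TSR1 (2.59), PNO1 (2.39) and WDR43 (2.18). In large subunit assembly 51 of 52 were higher (median 1.49), with WDR12 (2.77) and RRS1 (2.71) next to NOP16 and LYAR, and RRP1 (0.098) was not called although its paralog RRP1B rose by 2.62. The box C/D and H/ACA machinery, which methylates and pseudouridylates RNA, had 20 of 22 genes higher, including the helicases RUVBL1 (2.35) and RUVBL2 (2.15) and the pseudouridine synthase DKC1 (2.15).

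RNA polymerase III, which makes tRNA and 5S RNA, and its factors had 16 of 20 tested genes higher (median 0.74). CRCP (-0.03), GTF3C1 (0.12) and BRF1 (0.14) were not called, and the 1 lower gene was POLR3GL. POLR3G, the subunit typical of growing and undifferentiated cells, went from 25 and 27.5 to 230.4 and 206. Its low-Myc values lie below the filter level of 33.8, so no fold or p is given. Its paralog POLR3GL went from 731 and 750.4 to 459 and 435 (-0.59, limma adjusted p = 5.7e-07). POLR3GL was still called higher per cell (0.54), but by less than all 7 background probe sets above the filter (lowest 0.73). This pair was picked out after its values were seen, as were the subgroups named in the paragraphs that follow.

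The subunits that all 3 nuclear polymerases share rose with polymerases I and III, and those particular to polymerase II had a lower median. POLR2F (1.87), POLR2H (1.86), POLR2L (1.15), POLR2E (1.02) and POLR2K (0.87) are shared by the 3 enzymes, and all 5 were higher with a median of 1.15. Of 7 subunits of polymerase II alone 6 were higher with a median of 0.63. Its catalytic subunit POLR2A was called higher by only 0.19, turned sign under another scaling, and neither of its 2 further probe sets shared the sign. P-TEFb releases paused polymerase II, and its kinase CDK9 (-0.38) and cyclin CCNT2 (-0.45) were lower, as was HEXIM1 (-0.60), which holds it inactive. Of the other 3 genes of this subgroup MEPCE was higher (0.27) and CCNT1 (-0.08) and LARP7 (-0.16) were not called. The histone chaperone FACT, by contrast, rose in both subunits, SUPT16H (1.34) and SSRP1 (1.30). Over the whole list of polymerase II and its general factors 33 of 47 were higher and 4 lower (median 0.37). Per cell all were higher, against 91% of all genes.

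At the 5′ end of mRNA the enzymes and the readers of the cap parted. All 4 cap-forming genes were lower, from RAMAC (-0.21) to the capping enzyme RNGTT, which went from 652 and 625 to 269.6 and 295 (-1.04, limma adjusted p = 8.71e-09). RNGTT was not called per cell (0.099, adjusted p = 0.121), and all 9 of its further probe sets had the same equal-median sign. The 5 genes that bind or export capped RNA were higher, led by ALYREF, which went from 651 and 639 to 1868 and 1811 (1.65). NCBP2, the smallest of these rises (0.18), turned sign under another scaling. The list as a whole had 5 genes higher and 4 lower, and its median of 0.18 went to -0.053 with quantile normalization and -0.026 with centring on tested genes.

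Genes that mature and move RNA were mostly higher. Among 59 tRNA-modifying and processing genes 53 were higher and only the dihydrouridine synthase DUS2 (-0.73) was lower. The pseudouridine synthase PUS7 went from 153 and 150.0 to 1229.8 and 1215 (3.15), with no overlap between groups. All 9 tested genes of the exosome ring and cap, which degrades and trims RNA from its 3′ end, were higher (median 1.59), from EXOSC6 (0.20, which turned sign under another scaling) to EXOSC5 (2.46). The cytoplasmic SKI helicase genes SKIC2 (-0.18) and SKIC3 (-0.063) were not called. PRMT5, which methylates Sm proteins before snRNP assembly, went from 135 and 136 to 619 and 618 (2.33), and 18 of 20 arginine methyltransferase and SMN complex genes were higher. The Sm, LSm and snRNP proteins themselves had 39 of 43 higher (median 0.82), with SNRPF at 2.03, and the branch-site factor SF3B1 was the exception, going from 3660.5 and 3684 to 2728 and 2619 (-0.32). SR proteins (12 of 19 higher, median 0.32) and hnRNP proteins (17 of 26, median 0.36) moved less, apart from the SR protein kinase SRPK1 (1.85) and HNRNPAB (1.97).

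Genes of the nuclear pore and of transport through it were raised together. Of 30 nucleoporin genes 29 were higher (median 0.81), led by NUP35 (2.43) and NDC1 (2.23). Importins, exportins and the RAN cycle had 24 of 26 higher and none lower (median 1.13). RANBP1, a co-factor of the RAN GTPase, went from 1173 and 1129 to 4896 and 4935 (2.23), although 1 of its 2 further probe sets had the other sign. Regulators of mRNA decay were divided, with 13 of 30 higher and 11 lower. Several CCR4-NOT deadenylase genes such as CNOT10 (0.89, or 0.52 with the mean of its probe sets) and CNOT9 (0.84) were higher. CNOT8 of the same complex was lower (-0.94). PAN2 (-0.79) and PAN3 (-0.68) of the other deadenylase complex, the 5′ exonuclease XRN1 (-0.72) and the AU-rich element binding protein ZFP36 (-1.21) were lower. The median of this list, 0.083, was below 0 under all 4 other scalings, from -0.12 to -0.015.

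Genes that make and fold proteins were raised to different degrees. The cytosolic ribosomal proteins, with 58 of 66 higher, had a median of 0.24 and 37 of those 58 kept their sign under all 4 other scalings. Their median intensity was 11468, in the range where ERCC probe sets moved less, and the part of this in their small change was not tested. RPL35A had the largest rise, going from 474 and 449 to 1761 and 1741 (2.06, or 0.98 with the mean of its probe sets). Factors that act on the ribosome had higher medians. Initiation factors had 37 of 41 higher (median 0.66), including EIF2S1, the alpha subunit of eIF2 (1.96), and the repressor of cap binding EIF4EBP1 (1.66). PDCD4, an inhibitor of the helicase eIF4A, was the 1 lower member (-0.49). Of 21 cytosolic tRNA synthetase genes 20 were higher, led by FARSB (2.27). The CCT chaperonin and its partner prefoldin, which fold actin and tubulin, had 14 of 15 higher (median 1.31), with CCT2 at 1.79, and PFDN5 was lower (-0.19).

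The standard proteasome and its interferon-inducible form had different counts. All 36 tested standard subunits and assembly factors were higher (median 0.76), with PSMG4 at 2.14 and the catalytic subunit PSMB5 at 1.40. Of 5 immunoproteasome genes PSMB9 was lower (-0.42) and PSME1 was called higher at 0.11, a sign that turned under all 4 other scalings (-0.16 to -0.029). PSMB8 (0.028), PSME2 (-0.062) and PSMB10 (-0.08) were not called. The difference between the 2 sets was not tested.

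In metabolism, the pathways that supply nucleotides and one-carbon units were raised most. All 13 tested purine genes were higher (median 1.92, 3.04 per cell), with PFAS (2.66, or 1.28 with the mean of its probe sets) and PPAT (2.59) beside PAICS. PSAT1, of serine synthesis, went from 141 and 133 to 1373 and 1296 (3.43), and 22 of 25 serine and folate genes were higher. In pyrimidine and deoxynucleotide synthesis 16 of 21 were higher, including CAD (2.60), CTPS1 (2.43) and both subunits of the S-phase ribonucleotide reductase, RRM1 (1.89) and RRM2 (1.86). The 2 lower members were RRM2B and SAMHD1. RRM2B, the p53-inducible small subunit, went from 757 and 701 to 468 and 416 (-0.58). SAMHD1, which destroys dNTPs, went from 581 and 508 to 316 and 325 (-0.62). Both were nevertheless called higher per cell, by 0.55 and 0.52, less than all 7 background probe sets above the filter (lowest 0.73).

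Polyamine genes divided by whether they build or break down. All 4 synthesis genes were higher, with ODC1, the rate-limiting decarboxylase, going from 818 and 768 to 3229 and 3204 (2.16), AMD1 at 1.42 and SMS at 1.33 beside SRM. The 5 genes that salvage the methionine spent in this synthesis were also higher, from MRI1 (0.82) to MTAP (1.59). Of the 4 breakdown genes 3 were lower: SAT1, SAT2 (-1.03) and the oxidase PAOX, which went from 640.3 and 671 to 266 and 285 (-1.11). SMOX was not called (-0.23). OAZ2, which encodes an antizyme that inhibits ODC1, was lower (-0.71) and AZIN1, which inhibits antizyme, higher (0.37). Per cell SAT1 alone of the breakdown genes was lower, and PAOX was at 0.027 (limma adjusted p = 0.695).

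Central carbon, redox and lipid genes were mostly higher, with named exceptions. Glycolysis had 14 of 18 higher (median 0.75), where HK2 rose (0.96) and HK1 was not called (-0.11). In the TCA cycle and pyruvate entry 22 of 28 were higher and PDP1, the phosphatase that activates pyruvate dehydrogenase, was the 1 lower gene (-0.82). All 5 peroxiredoxins were higher, with PRDX4 going from 365 and 356 to 1571 and 1468 (2.21), as was thioredoxin, TXN (1.54). TXNIP, which binds and inhibits thioredoxin, went from 6919.8 and 6942 to 1989 and 2041 (-1.64) and was lower per cell (-0.85). Glutaredoxin GLRX (-1.05) and catalase CAT (-0.47) were lower on the equal-median scale. Among amino acid transporters 13 of 23 were higher, including the leucine carrier SLC7A5 (2.36, from a dim 96.1 and 85) and its partner SLC3A2 (0.87). The glutamine carrier SLC38A2 was lower (-0.85, or -0.55 with the mean of its probe sets). Cholesterol synthesis was mixed, with 12 higher and 5 lower of 23, among the latter the regulator SREBF2 (-0.40). The number lower was 2 without low-Myc replicate 2 and 3 without high-Myc replicate 1.

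**Figure D4:**
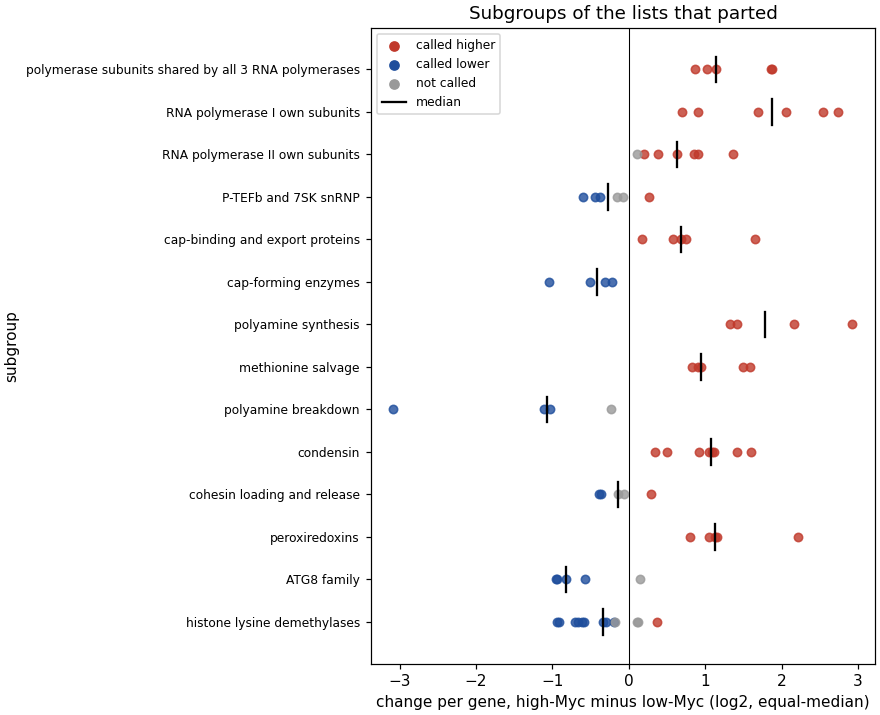
Equal-median change (log2, high-Myc minus low-Myc) of each tested gene in 14 subgroups taken from the lists after their values were seen, coloured by call, with the median as a bar. Synthesis and salvage genes of polyamines lie to the right of 0 and breakdown genes to the left, and likewise cap readers against cap-forming enzymes.

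Mitochondrial genes rose almost throughout, with 224 of 236 tested genes higher, 3 lower and none lower per cell, against 2.47% of all genes. The mitochondrial ribosome had 47 of 48 large subunit and 30 of 31 small subunit genes higher, with medians of 1.01 and 1.07, at median intensities of 558 and 523. The exceptions were MRPL40 (-0.17) and MRPS6 (-0.20). Import and folding genes had 36 of 38 higher (median 1.26), among them the HSP90 homolog TRAP1 (2.34) and the import co-chaperone GRPEL1 (2.04). Of genes that copy and express mitochondrial DNA 26 of 30 were higher, led by the PGC-1-related coactivator PPRC1, which went from 95.1 and 107 to 445 and 454 (2.29). NRF1, a DNA-binding factor known to work with it, was lower (-0.30). In complex I all 36 tested nuclear-encoded subunits were higher, within a range of 0.33 (NDUFA1) to 1.83 (NDUFAB1). Cytochrome c, CYCS, was the highest of its list at 2.27.

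Genes of DNA synthesis and division were mostly raised, with 204 of 241 higher and 18 lower. The kinase of G1 progression CDK4 went from 334 and 325 to 1223 and 1213 (2.03), and 18 of 20 cyclin, CDK and CDC25 genes were higher. CCND3 (-0.30) and CDC25B (-0.25) were lower, the latter with 1 of 3 further probe sets of the same sign. The pocket proteins, which restrain E2F, were split. RB1 went from 863 and 847 to 523 and 475 (-0.64) and RBL2 changed by -0.63, whereas RBL1, itself a known E2F target, rose by 0.79 at intensities of 67.0 or less. Of 6 tested CDK inhibitor genes CDKN2D, which binds CDK4 and CDK6, went from 517 and 486 to 116 and 123 (-1.92, -0.79 per cell). CDKN1B was at -0.18, and CDKN2A rose by 1.03, or by 0.38 with the mean of its probe sets. The call of CDKN1B was lost in 4 of its alternatives (limma adjusted p 0.0539 to 0.151).

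All 24 origin licensing genes were higher (median 1.57), including the 6 subunits of the MCM helicase. GMNN, which blocks a second licensing, went from 206 and 191 to 856 and 882 (2.27). In the replisome 36 of 39 were higher and POLD4, a small polymerase delta subunit removed on DNA damage, stood apart. It went from 1768 and 1691 to 677 and 591 (-1.31), and was lower per cell (-0.26, limma adjusted p = 0.0015). TOP2A, the dividing-cell topoisomerase, was higher (0.76) and its paralog TOP2B lower (-0.11). All 8 condensin subunits, which compact mitotic chromosomes, were higher, with a median of 1.08. Cohesin was mixed. Of 5 core genes SMC1A (1.10) and SMC3 (1.03) were higher, RAD21 lower (-0.13) and 2 not called. Of 5 loading and release genes PDS5A was higher (0.30), MAU2 (-0.39) and PDS5B (-0.36) lower and 2 not called. Spindle and kinetochore genes had 46 of 50 higher (median 0.93), with MAD2L1 at 2.38. In DNA repair 34 of 38 were higher, led by the uracil glycosylase UNG (2.79). The 2 apical checkpoint kinases differed: ATR, which answers replication stress, went from 230.1 and 209 to 346 and 327 (0.76), and ATM, which answers double-strand breaks, from 971 and 963 to 443 and 463 (-0.96).

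The promoters of GINS2, a subunit of the replicative helicase (2.30), and RFC3, a clamp loader subunit (1.96), were picked for holding an E2F word. Capitals mark that word, searched as TTTCCCGC and TTTGGCGC on both strands. Each is the 250 bases before the RefSeq start in GRCh38.p14, at chr16:85688955-85689204 on the minus strand and chr13:33817899-33818148 on the plus strand. The word begins 31 bases before the start in GINS2 and 55 in RFC3. One of the 2 further RFC3 probe sets did not share its sign.
GINS2: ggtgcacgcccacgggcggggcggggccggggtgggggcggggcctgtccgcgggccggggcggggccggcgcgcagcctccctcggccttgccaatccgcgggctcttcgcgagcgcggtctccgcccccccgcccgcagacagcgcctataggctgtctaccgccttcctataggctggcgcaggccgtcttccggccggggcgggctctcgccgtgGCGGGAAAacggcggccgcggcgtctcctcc
RFC3: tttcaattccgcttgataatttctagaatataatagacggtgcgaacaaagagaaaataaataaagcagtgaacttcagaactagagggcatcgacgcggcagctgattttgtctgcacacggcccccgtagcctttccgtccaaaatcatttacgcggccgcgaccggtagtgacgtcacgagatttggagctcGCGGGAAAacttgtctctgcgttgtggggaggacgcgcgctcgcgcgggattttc
Such a word stood in 6 of 21 origin licensing promoters (28.6%), 6 of 34 replisome promoters (17.6%) and 27 of 203 over all cell cycle lists (13.3%), against 3.12% of the 9951 tested genes with an entry and 1.96% of all 27305 promoters in the table.

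Lymphocyte genes were mostly lower relative to other genes. Of 272 tested genes 28 were higher and 197 lower, and 35 (12.9%) were lower per cell, against 2.47% of all genes. Of 24 genes of the B-cell receptor and its co-receptors 22 were lower and none higher (median -0.74), while 15 were higher and 5 lower per cell. The signalling chain CD79A went from 654 and 653 to 252 and 266 (-1.20) and was not called per cell (-0.06, limma adjusted p = 0.419). Its partner CD79B went from 3499 and 3342 to 1083 and 1118 (-1.50), but neither of its 2 further probe sets had that sign. The kinases LYN (-0.78), SYK (-0.66) and BTK (-0.60) were lower and all 3 still rose per cell. MS4A1 went from 12704 and 12705 to 9668 and 9365 (-0.28). It was one of the 5 brightest genes called higher per cell (0.33) and lower relative to others. The other 4 were HLA-DPA1 (-0.28), HLA-DRA (-0.19), TMSB10 (-0.18) and B2M (-0.084), of which B2M lost its equal-median call in 4 alternatives and HLA-DRA its per-cell call in 1. Per cell these 5 changes, 0.29 to 0.48, were smaller than those of all 7 background probe sets above the filter (0.73 to 1.57). ERCC probe sets above 5000 also lay 0.26 higher after the curve, and the part of this in the 5 changes was not tested.

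Transcription factors of B-cell identity did not move as a block. Of 25 tested 16 were lower and 4 higher. EBF1, needed to specify B cells, went from 1116 and 1083 to 459 and 480.4 (-1.09), the octamer coactivator POU2AF1 changed by -1.13 and MEF2C by -1.04. PAX5, which maintains B-cell identity, was read at 753 and 918 on the low-Myc arrays and 866 and 939 on the high-Myc arrays, so its deposited values overlapped between groups. It was called higher by 0.26, kept its sign under the 4 other scalings but not its call under all of them, and 3 of its 7 further probe sets shared the sign. ID2, an inhibitor of E proteins, went from 2364 and 2348 to 963 and 817 (-1.27) whereas its relative ID3 went from 871 and 853 to 1123 and 1126 (0.52). XBP1 of the secretory programme was higher (0.55). Among plasma cell markers MZB1 (0.86) and FKBP11 (2.31, or 1.35 with the mean of its probe sets) were higher and JCHAIN lower (-0.38). The summed plasma cell markers were 7584 and 7522 against 6971 and 6857, with the defining marker SDC1 at 42.9 or less on every array.

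Antigen presentation genes and those of chemokines and cytokines were mostly lower relative to others. All 11 tested MHC class II chains and chaperones were lower and 10 of them were higher per cell, against 91% of all genes. The master regulator CIITA changed by -0.90, or by -0.44 with the mean of its probe sets. The whole class II list had 15 of 17 lower and 1 higher, the regulator RFXAP (1.01). In class I, 11 of 16 were lower, with HLA-E going from 3083 and 2924 to 1062 and 1106 (-1.33) and the class I transactivator NLRC5 from 1939.8 and 1789 to 741 and 732 (-1.20), both also lower per cell. The chaperone calnexin, CANX, was the 1 higher member (0.79). Of 31 chemokine, cytokine and receptor genes 20 were lower and 4 higher, the latter falling to 2 without low-Myc replicate 2. The chemokine receptor CXCR4 went from 1088 and 922 to 296 and 272 (-1.68), CCR6 changed by -1.86 and the lymphotoxin LTB by -1.38. CXCL10 went the other way, from 195 and 196 to 293 and 284 (0.70).

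Interferon-stimulated genes were lowered almost without exception, with 48 of 49 lower and none higher (median -0.84). Per cell the median was 0.15, with 27 higher and 9 lower. IFI27 went from 2677 and 2538 to 709 and 766 (-1.68), IFIT2 from 2470 and 2412 to 715 and 732 (-1.62) and IFI44L from 2829.7 and 2796 to 957 and 901 (-1.46), with no overlap between groups. The sensor RIGI (-1.26) and the factor IRF7 (-1.31) were lower as well, also per cell. The promoters of IFI27 and IFI44L were picked for holding the interferon-stimulated response element, which is shown in capitals. It was searched as GAAA, any 2 bases and GAAA again on both strands. Both windows are the 250 bases before the RefSeq start in GRCh38.p14, on the plus strand, at chr14:94110486-94110735 and chr1:78620198-78620447.
IFI27: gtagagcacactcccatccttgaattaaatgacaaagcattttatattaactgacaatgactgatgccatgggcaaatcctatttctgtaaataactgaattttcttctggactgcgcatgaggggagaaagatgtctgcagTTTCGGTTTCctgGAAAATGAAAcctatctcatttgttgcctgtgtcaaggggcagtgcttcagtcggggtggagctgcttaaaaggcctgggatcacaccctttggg
IFI44L: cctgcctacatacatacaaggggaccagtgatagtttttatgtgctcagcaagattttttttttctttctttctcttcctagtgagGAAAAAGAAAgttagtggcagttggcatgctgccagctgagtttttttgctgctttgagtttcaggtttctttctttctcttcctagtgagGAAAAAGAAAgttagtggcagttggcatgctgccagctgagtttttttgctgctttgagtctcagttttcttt
Each holds the word 2 times. It stood in 22 of 41 promoters of this list (53.7%) and 5 of 13 of the class I list (38.5%), against 2.44% of tested genes with an entry and 3.07% of all promoters.

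Genes associated with rest and with recent stimulation were more often lower than higher. Over 5 lists (YPEL, BTG and TOB, KLF and FOXO, AP-1, EGR and NR4A, ERK and G-protein feedback, and CDK inhibitors) 67 genes were tested, of which 11 were higher, 44 lower and 22 lower per cell. BTG1, an antiproliferative gene, went from 4952 and 4889 to 1555 and 1580 (-1.51), and its relative BTG3 from 161 and 141 to 485 and 485 (1.83). YPEL1 (-0.83), YPEL2 (-0.93) and YPEL3 (-1.52) were lower beside YPEL5. KLF6 (-1.62), KLF2 (-0.77) and FOXO1 (-0.72), factors tied to lymphocyte rest and traffic, were lower. Of 21 AP-1, EGR and NR4A genes 13 were lower and 8 lower per cell. JUNB (-0.73) and JUN (-0.97, or -0.57 with the mean of its probe sets) were lower relative to other genes only. IER2 was lower on both scales. FOS went from 4981 and 4899 to 35.6 and 40.8 and EGR1 from 2149.7 and 2039 to 43.5 and 49.3, which ends near the filter level of 33.8, so no fold is given. NAB1 (0.87, or 0.29 with the mean of its probe sets), a repressor of EGR factors, was higher. DUSP5 (-3.03), a phosphatase that silences ERK, and TP53INP1 (-1.83, or -0.99 with the mean of its probe sets) were lower on both scales.

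The MYC and MAX network itself was divided, with 5 of 14 genes higher and 6 lower. The number lower rests on single arrays: it was 1 without low-Myc replicate 1 and 3 without either high-Myc replicate. MXI1, which competes with MYC for MAX, went from 311 and 359 to 855 and 849.9 (1.49). MXD4, of the same family, went from 298 and 289 to 136 and 143 (-0.93, or -0.62 with the mean of its probe sets). MNT (0.33) and MGA (0.66) were higher and MAX was at -0.15. The median of this list (0.011) turned below 0 under all 4 other scalings (-0.19 to -0.018), as did those of the clock genes (0.027, to as low as -0.18) and the PI3K and mTOR regulators (0.0067, to as low as -0.20). Among clock genes PER2 rose by 1.22, but by 0.28 without a call when all its probe sets were averaged (limma adjusted p = 0.0586), and NFIL3 changed by -1.58. Among PI3K and mTOR regulators MLST8 (0.75) and RPTOR (0.75) of mTORC1 were higher and RICTOR of mTORC2 lower (-0.79).

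Lysosome and autophagy genes were more often lower than higher. Of 31 lysosomal genes 16 were lower and 9 higher, with cathepsin B, CTSB, going from 1215 and 1093 to 492 and 470.4 (-1.12) and cathepsin C, CTSC, from 408 and 416 to 727 and 731 (0.96). In autophagy 14 of 32 were lower, and they included 4 of the 5 ATG8 genes, whose products coat the autophagosome. MAP1LC3B went from 1029.8 and 1212 to 536 and 513 (-0.95). GABARAP went from 2864 and 2824 to 1464 and 1459 (-0.82, or -0.46 with the mean of its probe sets). GABARAPL2 changed by -0.58, and GABARAPL1 ended below the filter level. None of these was lower per cell, against 2.47% of all genes. In the endoplasmic reticulum 22 of 29 translocation and signal recognition genes were higher. Of 22 unfolded protein response genes 12 were higher, led by MANF, a secreted survival factor (1.53), and 6 lower. Among these was the degradation ligase SYVN1 (-0.94, or -0.33 with the mean of its probe sets). For the integrated stress response and for COPI and COPII coats the medians were 0.14 and 0.14, and both changed sign under quantile normalization, under centring on tested genes and in the deposited values (lowest -0.069 and -0.066).

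Chromatin genes showed no common direction, with 28 of 88 higher and 28 lower (median -0.014). The median of remodeller genes was 0.046 and fell below 0 under all 4 other scalings (-0.17 to -0.087). Within the lists, enzymes of opposite or paired function differed. UHRF1, which guides maintenance DNA methylation, went from 195 and 206 to 931 and 918 (2.35, or 1.23 with the mean of its probe sets). TET2, which oxidises methylcytosine, went from 647 and 643 to 274 and 269 (-1.11). The acetyltransferase KAT2A rose by 0.95 and its paralog KAT2B went from 503 and 535 to 186 and 192 (-1.32). HDAC2 was higher (1.46) while HDAC1 (0.0035) was not called. Of 13 histone lysine demethylase genes 9 were lower, with KDM3A at -0.94, and 1 was higher, KDM1A (0.37). Among genes of methyltransferase families NSD2 (1.24, or 0.83 with the mean of its probe sets) was higher and KMT2E lower (-0.89). The shared subunit WDR5 was higher (1.66). EZH2 of Polycomb was higher (0.86) and EZH1 was not called (0.14).

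Over all tested genes with a promoter entry, the words above varied with the size of the change. E-box CACGTG stood in 7.23% of promoters in the decile of genes most lowered and 11.7% in the decile most raised, against 8.76% of all tested genes with an entry and 6.49% of all promoters in the table. The variant CACGCG, searched on both strands, went from 10.4% to 20.1%, against 15% of tested genes and 9.62% of all promoters. The E2F words went from 2.11% to 5.53% and the interferon word from 5.12% to 2.31%. Base composition moved along with the E-box words: promoters held 17.1 CpG dinucleotides on average in the most lowered decile and 22.4 in the most raised, at 61.7% and 64.3% GC, and its part in the shares was not tested. By class, CACGTG stood in 405 of 3890 promoters of genes higher on both scales (10.4%) and 12 of 226 of genes lower on both (5.31%). For the interferon word the shares were 1.93% and 8.41%. For the CArG box, the site of serum response factor, they were 0.848% and 3.1% (7 of 226), against 1.14% of all promoters. Genes not called on either scale held the CArG box in 5 of 139 promoters (3.6%). A match in these windows is a description of the letters only, and it does not show binding.

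**Figure D5:**
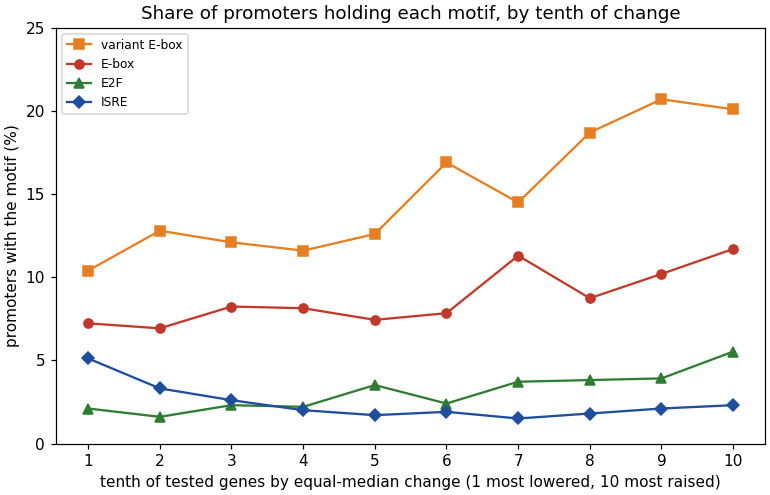
Share of promoters (percent, 250 bases before the start) that hold each motif, for deciles of the 9951 tested genes with an entry, ordered from the most lowered (1) to the most raised (10) on the equal-median scale. The E-box and its variant rise from left to right and the interferon-stimulated response element is highest in the first decile.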

How the data were processed

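Total RNA, with ERCC RNAs added per cell number, was labelled and hybridised to Affymetrix arrays, per the labels. The deposited values are linear probe set intensities that the authors summarised with MAS5, per the submitters' processing notes, with version and scaling target not given in the sources used here. Of 49293 human probe sets 45278 list 1 symbol. The brightest probe set of each of 18244 genes was kept and 12198 genes passed a filter on mean intensity (33.8, the 40th percentile). Per-cell values are log2 intensities minus a curve through the ERCC probe sets (robust loess, span 0.7). For the equal-median scale arrays were centred on the human median. Differences were fitted with limma 3.58.1 (variance trend) in R 4.3.3 over all 6 arrays, with Benjamini-Hochberg adjustment at 0.05, and the steps were tested on simulated data. The number of arrays limits the precision, and p-values measure the spread between duplicates. Replicates correlated at 0.996 or above.

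The members, gene lists and tests were chosen with earlier results of these data known. Genes named by rule were MYC, the 12 largest rises and 12 largest falls on the equal-median scale at 200 or more in both groups, the 5 brightest genes higher per cell and lower relative to others, and up to 4 members of each list at 100 or more in both groups. The rises and falls were taken from called genes whose groups did not overlap on that scale. Promoter sequences followed a rule for SRM, SAT1 and YPEL5. Other genes named, the 22 subgroups and the remaining promoters were chosen after their values were seen. Replicate numbers did not pair the samples: the correlation of same-numbered deviations was -0.0034. Alternatives changed the normalization, the ERCC curve, the filter, the choice of probe set, an added constant of 16, the variance trend and the replicates used.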

Additional observations from a re-analysis of the deposited data

Results flagged for a closer look

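Signal also appeared in probe sets that the comparisons above do not use because no gene symbol is listed for them. Of 1431 such probe sets above the filter, 498 (34.8%) were higher and 339 (23.7%) lower in high-Myc cells on the equal-median scale (limma, Benjamini-Hochberg adjusted), beside 37.7% and 26% of named genes. Of 771 probe sets that list several genes, 272 were higher and 201 lower. What these probe sets measure was not examined.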

How the results depend on the processing

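The count of genes higher or lower on each scale stayed within 1.5 times its value under every alternative run, with 2 exceptions. Centring on the tested genes raised the number lower relative to others from 3172 to 4931 and those higher per cell but lower relative to others from 2253 to 3895. The median per-cell change of 0.98 moved with the processing: it was 1.24 with 1 ERCC factor per array, 1.04 with a curve of span 0.4, 0.69 without a filter, 1.17 with a filter at the 60th percentile, 0.84 with the mean of all probe sets and 0.85 with 16 added before log2. Leaving out each replicate in turn gave 0.97 to 1.00. With replicate number as a block, 11107 genes were higher and 300 lower per cell and 4618 and 3199 on the equal-median scale, but the samples share only that number. PSME1 reversed from 0.11 to -0.16 with quantile normalization, -0.093 when centred on tested genes, -0.031 with cyclic loess and -0.029 as deposited. The cause was not tested. Of the genes named by rule, 7 lost a call in at least 1 alternative (H1-10, B2M, HLA-DRA, PSME1, CDKN3, CDKN1B and PER2), and 52 of 341 had an equal-median change over 1.5 times smaller with the mean of all probe sets. Only some of these are marked in the text above. Genes named outside the rule were compared only across scalings. Dim genes limit the comparison, since values near the filter lie in the range of background probe sets. The brightest background probe set had a mean intensity of 694, so brighter genes are not exempt.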

Other observations

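Several gene lists not described above added further detail on the equal-median scale. Elongation and termination factors had 18 of 20 genes higher, among them DPH2 (1.98) of diphthamide synthesis, the release factor ETF1 (1.70) and its partner GSPT1 (1.53). Of the HSP90 and HSP70 machine 28 of 30 were higher, with the mitochondrial chaperonins HSPD1 (1.95) and HSPE1 (2.09) near the top and HSPA4 lower (-0.47). RPIA (1.88) and TKT (1.30, or 0.69 with the mean of its probe sets) of the non-oxidative pentose phosphate branch were higher. Their list had 8 of 12 higher. Glutamine and aspartate genes had 12 of 14 higher, including asparagine synthetase ASNS (1.36) and proline synthesis gene PYCR1 (1.58). With the mean of its probe sets PYCR1 was at 0.996. Fatty acid synthesis had 11 of 16 higher, with the desaturase SCD at 1.49 and acetyl-CoA carboxylase ACACA at 1.41. In iron and heme handling 15 of 20 were higher, including the transferrin receptor TFRC (0.90) and ferrochelatase FECH (1.11). ALAD, an early heme synthesis enzyme, was lower (-0.80). With the mean of their probe sets FECH was at 0.60 and ALAD at -0.45.

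Signalling and survival lists leaned the other way. Activation surface markers had 18 of 25 lower, with CD69 going from 3275 and 3466 to 135 and 108 and TNFSF9, the T-cell co-stimulatory ligand, at -2.02. In adhesion and S1P receptors 16 of 22 were lower, including the tetraspanin CD37 (-1.40) and the integrin ITGA4 (-1.04). JAK and STAT genes had 11 of 21 lower, with JAK2 at -0.92 and STAT3 at -0.69. The NF-kB list was mixed, with 6 of 22 higher and 9 lower, REL lower (-0.88) and the negative regulator TRAF3 higher (0.83). With the mean of its probe sets TRAF3 was at 0.48. The BCL2 family had 5 of 20 genes higher and 11 lower, beside 37.7% and 26% of all genes. Its pro-apoptotic PMAIP1 (-1.05) and BCL2L11 (-0.38) and anti-apoptotic BCL2L1 (-0.49) and MCL1 (-0.43) were all lower, while BID was higher (0.67). Of 27 p53 and target genes 8 were higher and 11 lower: AEN (0.98) and CCNG1 (0.64) were higher and ZMAT3 (-0.67) and GADD45A (-0.61) lower. The RGS and DUSP feedback genes had 12 of 19 lower, and RGS16 was the 1 higher member (1.27).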
